A study of Mus musculus with 9 samples.

Results

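The co-inhibitory receptors of T cells are examined here through 8 genes, Pdcd1, Lag3, Havcr2, Tigit, Ctla4, Cd160, Btla and Cd200, which were taken by symbol from a table of 39253 mouse genes. All 8 were in the table and all 8 passed the low-count filter in each comparison. RNA had been sequenced from CD4+ T cells of mice with experimental autoimmune encephalomyelitis (EAE), a mouse model of multiple sclerosis in which T cells attack myelin, on day 9. There were 4 libraries labelled wildtype (WT) and 5 labelled ERα KO, for a knockout of estrogen receptor alpha. Replicates WT 1 and WT 2 and KO 1, KO 2 and KO 3 belong to batch 1, and replicates WT 3 and WT 4 and KO 4 and KO 5 to batch 2, by the labels. EAE and the day were shared by both genotypes. The series title places its interest in dendritic cells, while the labels do not give the cells in which the receptor was deleted, the driver or allele, the strain, sex or age of the mice, the tissue, or whether animals were pooled. No label says that replicates are separate animals, so p-values measure only the spread between these libraries, which may be technical.

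Co-inhibitory receptors are surface proteins that dampen T cell activation when they meet their ligands on other cells. They are induced by antigen receptor signalling, are carried at high level by regulatory, exhausted and follicular helper T cells, and are targets of immune checkpoint therapy. In EAE, loss of several of them is known to worsen disease. Cd200 differs from the other members, because its product is the ligand of an inhibitory receptor on myeloid cells and not itself a receptor that signals into the T cell.

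Libraries of batch 1 held 4926347 to 11296593 counts and those of batch 2 held 45013017 to 69844721. The identity of the cells was checked on Cd4 and Cd3e, which were at 925 to 1321 and 1071 to 1522 CPM (each gene's count divided by the library total and scaled to 1e+06) over the 9 libraries, while the summed CD8 T cell markers were at 9.71 to 18.9 CPM. Esr1, the targeted gene, was at 1.45 and 1.69 CPM in the batch 2 WT libraries and at 0.143 and 0.256 CPM in the batch 2 KO libraries. Batch 1 had Esr1 at 4.87 and 16.2 CPM in WT and at 9.58, 6.31 and 13.0 CPM in KO libraries, with overlapping genotypes, so there the genotype labels had no support from this gene. Reads outside the deleted part of a gene check nothing, and that part is not given in the labels. WT and KO below mean the libraries labelled so. Sensory receptor genes, which T cells do not use, averaged 0.38 to 1.69 CPM per gene in batch 1 and 0.0171 to 0.0245 CPM in batch 2. The lowest value of any member was 2.83 CPM, for Cd160 in WT 1 of batch 1, so members with low values stand nearer to this background in batch 1.

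Promoter sequences were matched by symbol for 7 of the 8 genes, all but Lag3, in RefSeq on build GRCm38.p6, which is not the build of the count table. The 250 bases before the annotated start are printed for Havcr2 and Btla, the only members whose genotypes separated in opposite directions in the batches, and for Pdcd1, which with Havcr2 held an estrogen response half-site. Capitals mark matches to AGGTCA (the half-site), TGANTCA (the AP-1 element) and TCACAC (a T-box half-site), read on both strands.
Havcr2, chr11:46454681-46454930, + strand: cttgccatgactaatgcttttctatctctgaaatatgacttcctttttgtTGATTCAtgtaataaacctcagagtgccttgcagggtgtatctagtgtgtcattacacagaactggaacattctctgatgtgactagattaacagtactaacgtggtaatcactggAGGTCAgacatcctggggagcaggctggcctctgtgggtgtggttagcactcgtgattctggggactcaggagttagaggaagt
Btla, chr16:45224087-45224336, + strand: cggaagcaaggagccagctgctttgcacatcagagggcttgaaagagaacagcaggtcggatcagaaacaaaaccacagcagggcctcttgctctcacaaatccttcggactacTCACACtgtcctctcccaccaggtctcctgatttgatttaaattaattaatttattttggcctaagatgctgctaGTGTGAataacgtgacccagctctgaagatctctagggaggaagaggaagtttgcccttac
Pdcd1, chr1:94052554-94052803, - strand: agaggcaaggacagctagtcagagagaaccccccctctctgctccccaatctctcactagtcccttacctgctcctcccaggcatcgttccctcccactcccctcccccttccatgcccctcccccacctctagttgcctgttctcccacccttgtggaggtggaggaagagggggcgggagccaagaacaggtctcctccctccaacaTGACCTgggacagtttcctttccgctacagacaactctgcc
The half-site AGGTCA was in 14.0% of the 32851 RefSeq windows of this length, AP-1 elements in 6.75% and TCACAC in 12.3%. Among the 7 matched members the half-site was found in 2, the AP-1 element in 1 (Havcr2) and TCACAC in 2 (Btla and Cd160). The full palindromic estrogen response element, whose arms share most letters with the half-site, was in 0.0639% of windows and in 0 of the 7. These are matches of letters and not measured binding sites.

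The comparison of KO with WT asks whether the transcripts of these genes differ between CD4+ T cells of the genotypes, first over both batches with batch in the model. No member passed. Of the 8 members 0 were called by edgeR's quasi-likelihood test, where 0.00406% of 24633 genes were called, and 0 had an unadjusted p under 0.05, where 2.3% of genes did. DESeq2 also called 0 of 8, against 0.0568% of genes. Log2 fold changes were above 0 for 5 members and below 0 for 3, with a median of 0.10 beside 0.02 over all genes tested. The 95% intervals of Btla, from -0.36 to 0.24, and of Cd200, from -0.27 to 0.51, were the narrowest. The interval of Havcr2, from -1.85 to 1.11, was the widest, so differences within that range were not excluded for that gene.

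The members split into those that were steady over the libraries and those that were not. Btla ranged 1.4-fold and Cd200 1.37-fold between the lowest and highest of the 9 libraries, while Tigit ranged 4.29-fold and Havcr2 12.2-fold. The lowest Havcr2 value rests on 14 counts, in WT 2. Pdcd1, Lag3, Ctla4 and Cd160 lay between, at 2.37-fold to 3.02-fold.

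**Figure D1:**
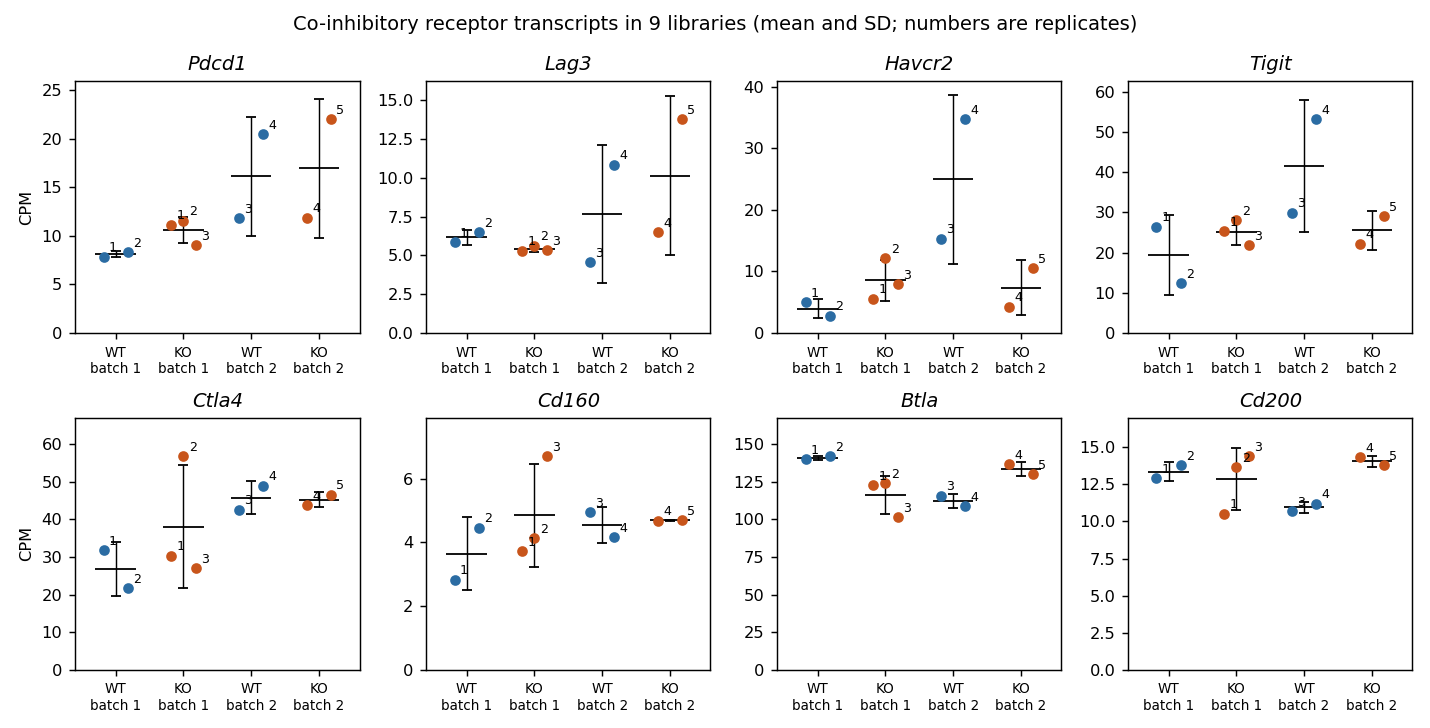
CPM of each member (y axis, linear from 0) in the 9 libraries, by genotype and batch (x axis). Points are libraries with their replicate numbers, horizontal bars are means and error bars are SD (n = 2, and n = 3 for KO in batch 1). Havcr2 reaches 34.7 CPM in WT 4 and stays at or under 15.3 CPM in every other library.

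Havcr2 encodes TIM-3, a receptor of T helper 1, cytotoxic and myeloid cells that binds galectin-9 and other ligands. Its batch 2 values were 15.3 and 34.7 CPM in the WT libraries against 4.26 and 10.5 CPM in the KO libraries. Both KO libraries stood below both WT libraries, with means of 25.0 ± 13.7 (SD, n = 2) and 7.38 ± 4.4 CPM (SD, n = 2), or 3.38-fold lower in KO. The order was the opposite in batch 1. WT libraries held 5.05 and 2.84 CPM and KO libraries 5.59, 12.2 and 7.89 CPM of Havcr2, so every KO library stood above every WT library, though KO 1 exceeded WT 1 by little. These batch 1 values rest on 14 to 106 counts, the lowest in WT 2. In WT 2 the 95th percentile of the sensory receptor genes was 2.64 CPM, near the Havcr2 value. The part of that background in the Havcr2 values was not tested.

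The log2 fold change of Havcr2 was -1.74 ± 0.60 (SE) in batch 2 (unadjusted p = 0.0403, edgeR adjusted p = 0.628). In batch 1 it was 0.91 ± 0.55 (edgeR adjusted p = 1). The test of the difference between batches gave an interaction of -2.66 ± 0.78 (unadjusted p = 0.00424, edgeR adjusted p = 0.388), which did not pass. The interaction called 0 of the 8 members and 0.00364% of 27452 genes. Havcr2 was the 1 member with an unadjusted p under 0.05 there, beside 8.43% of genes. DESeq2 called 0 members for the interaction, beside 0.572% of genes. Single libraries and the test used moved these calls. DESeq2 called Havcr2 in batch 2 (adjusted p = 0.0464), where it called 2.07% of genes, and gave the interaction an adjusted p of 0.0774. Without WT 3, edgeR called the interaction of Havcr2 (-3.10, adjusted p = 0.0456), as it did 1.12% of genes, with the lone WT library of batch 2 assumed to vary like the other groups.

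Marker sums of other cell types are given beside Havcr2, whose product is also made by myeloid and natural killer (NK) cells. The 5 monocyte and macrophage markers summed to 76.9 and 95.8 CPM in WT and to 51.3 and 55.5 CPM in KO libraries of batch 2, with none of them at 0 in any library. Taken singly, Lyz2, Csf1r, Adgre1 and Cd14 overlapped between the genotypes there and Cd68 did not. All 5 markers had a negative log2 fold change in batch 2. In batch 1 they summed to 48.5 to 128 CPM in WT and 103 to 181 CPM in KO, and WT 2 had the lowest value of both this list and Havcr2. The 5 dendritic cell markers summed to 5.94 to 9.26 CPM in WT and 2.61 to 3.66 CPM in KO of batch 2, where up to 3 of them were at 0, and to 11.2 to 25.2 and 20.8 to 39.1 CPM in batch 1. The 5 NK markers summed to 20.0 to 24.3 CPM in WT and 18.6 to 19.6 CPM in KO of batch 2, with up to 2 at 0, and to 20.7 to 22.1 and 23.7 to 35.9 CPM in batch 1. The batch 2 sums hide opposite directions, since 4 NK markers had a negative log2 fold change there and 1, Eomes, a positive one. Gzma was at 6.53 to 6.93 CPM in WT and 1.23 to 1.37 CPM in KO of batch 2. In batch 1 Gzma was at 5.28 to 8.14 CPM in WT and 2.93 to 5.39 CPM in KO. The 5 neutrophil markers summed to 107 and 17.2 CPM in WT and 4.69 and 5.97 CPM in KO of batch 2, and to 239 to 561 and 410 to 653 CPM in batch 1. By library these lists did not all follow Havcr2, since WT 2 had a higher dendritic sum than WT 1, and WT 4 a lower neutrophil sum than WT 3. In batch 1 WT 1 had a higher monocyte and macrophage sum than KO 3, while Havcr2 was lower in WT 1 than in KO 3. The part of these cells in the Havcr2 values was not tested. Among T cell states, the 9 proliferation markers summed to 2773 and 1530 CPM in WT and 736 and 1070 CPM in KO of batch 2, and to 455 to 859 and 561 to 887 CPM in batch 1, where the genotypes overlapped. In bulk RNA, fewer cells of a type and less RNA per cell cannot be told apart.

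**Figure D2:**
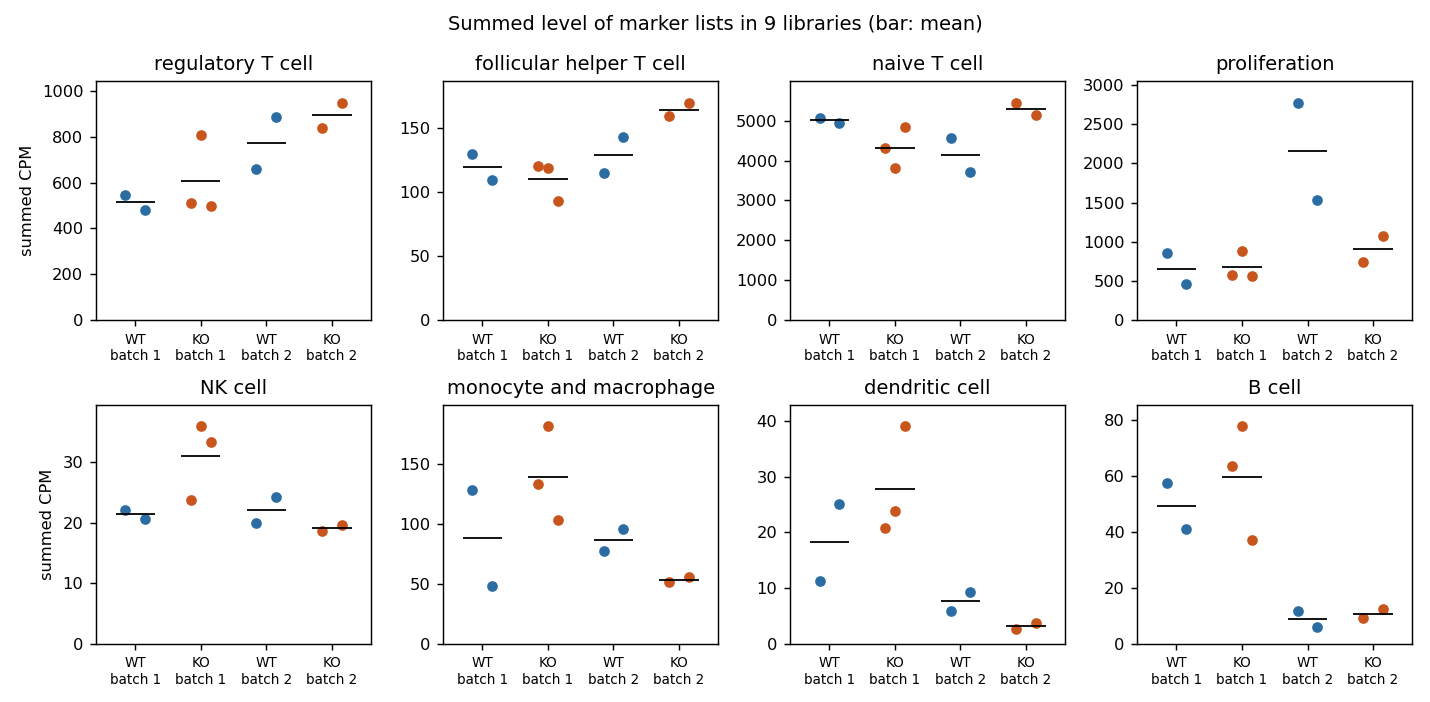
Summed CPM (y axis, linear from 0) of 8 marker lists in the 9 libraries, by genotype and batch (x axis), with bars at the means. The monocyte and dendritic cell sums are lower in KO than in WT in batch 2, and the naive and follicular helper sums are higher.

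Tigit encodes a receptor that competes with the co-stimulatory CD226 for the poliovirus receptor and is abundant on regulatory T cells. Batch 2 gave 29.9 and 53.1 CPM in the WT and 22.2 and 29.0 CPM in the KO libraries. The genotypes did not overlap, though WT 3 and KO 5 were nearly level. Batch 1 gave 26.5 and 12.4 CPM in WT and 25.3, 28.0 and 21.9 CPM in KO libraries, where WT 1 stood among the KO libraries and WT 2 stood apart below them. The log2 fold change was -0.68 ± 0.29 in batch 2 (edgeR adjusted p = 0.651) and 0.17 ± 0.39 in batch 1 (edgeR adjusted p = 1), and the interaction was -0.86 ± 0.61 (edgeR adjusted p = 0.941). Without WT 3, Tigit was called in batch 2 at -1.01 (edgeR adjusted p = 0.0366), as were 1.62% of genes, against a lone WT library, and without WT 4 it stood at -0.27. Without WT 2 the batch 1 value turned from 0.17 to -0.39. The 7 regulatory T cell markers summed to 661 and 885 CPM in WT and 839 and 949 CPM in KO libraries of batch 2. Within each genotype the library with the higher sum also had more Tigit. Between the genotypes these sums overlapped, while the Tigit values did not. The part of regulatory T cells in the Tigit values was not tested.

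Btla encodes a receptor that binds the herpesvirus entry mediator (Tnfrsf14) and marks naive and follicular T cells and B cells. Its values in batch 2 were 116 and 109 CPM in WT and 137 and 130 CPM in KO libraries. Both KO libraries stood above both WT libraries, at 133 ± 4.76 against 112 ± 4.79 CPM (SD, n = 2 each). Its values in batch 1 were 140 and 142 CPM in WT and 123, 124 and 101 CPM in KO libraries, with every KO library below every WT library. The log2 fold changes were 0.25 ± 0.11 in batch 2 (edgeR adjusted p = 0.657) and -0.41 ± 0.37 in batch 1 (edgeR adjusted p = 1). The interaction of 0.65 ± 0.46 did not pass (edgeR adjusted p = 0.938).

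Cd200 is the next protein-coding gene to Btla on chromosome 16 in RefSeq, with 0 others between them, and Tigit lies on the same chromosome. Cd200 measured 10.7 and 11.2 CPM in WT and 14.3 and 13.8 CPM in KO libraries of batch 2, again without overlap. The genotypes overlapped in batch 1, with 12.9 and 13.8 CPM in WT and 10.5, 13.7 and 14.4 CPM in KO libraries. Its log2 fold change was 0.37 ± 0.18 in batch 2 (edgeR adjusted p = 0.692) and -0.21 ± 0.40 in batch 1 (edgeR adjusted p = 1).

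The naive list separated the genotypes in the direction of Btla in both batches, and in that of Cd200 in batch 2. The 6 naive T cell markers summed to 4571 and 3725 CPM in WT and 5451 and 5135 CPM in KO libraries of batch 2, and to 4952 to 5071 CPM in WT and 3807 to 4836 CPM in KO libraries of batch 1, where Cd200 overlapped. The 6 follicular helper markers summed to 115 and 143 CPM in WT and 159 and 169 CPM in KO of batch 2. In batch 1 they summed to 109 to 129 CPM in WT and 92.5 to 120 CPM in KO, which overlapped, unlike Btla. None of these 12 markers was at 0 in any library. The 5 B cell markers, for a cell that also carries both genes, summed to 11.7 and 6.13 CPM in WT and 9.08 and 12.4 CPM in KO of batch 2, where the ranges overlapped. In batch 1 the B cell sums were higher, 41.0 to 57.6 CPM in WT and 37.1 to 77.7 CPM in KO, and overlapped too. The sum of the 6 CD4 T cell markers found, Cd4 and Cd3e among them, also separated the genotypes in the direction of Btla. It was 3503 and 3808 CPM in WT and 4030 and 4096 CPM in KO libraries of batch 2. In batch 1 it was 3247 to 3374 CPM in WT and 2838 to 2989 CPM in KO. The direction was thus not particular to the naive list. The part of naive cells, or of T cells in general, in the Btla and Cd200 values was not tested.

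Ctla4 encodes the CD28 competitor that binds CD80 and CD86 and is constitutive in regulatory T cells. It measured 42.6 and 48.9 CPM in WT and 43.8 and 46.6 CPM in KO libraries of batch 2, with the KO values inside the WT range. The log2 fold change there was -0.01 with a 95% interval of -0.30 to 0.28. Batch 1 held 31.8 and 21.7 CPM in WT and 30.3, 56.8 and 27.0 CPM in KO libraries. KO 2 alone stood high, and the regulatory T cell markers summed to 810 CPM in that library and to 482 to 546 CPM in the 4 others of the batch. Foxp3, which defines these cells, was at 280 CPM in KO 2 and at 138 to 170 CPM in the other 4. The part of regulatory T cells in the Ctla4 values was not tested. The batch 1 log2 fold change of 0.37 ± 0.39 (edgeR adjusted p = 1) turned to -0.11 without KO 2.

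Pdcd1 encodes PD-1, which recruits phosphatases to the antigen receptor when it binds PD-L1 or PD-L2. Batch 2 held 11.8 and 20.5 CPM in WT and 11.9 and 22.0 CPM in KO libraries, so each genotype held 1 low and 1 high library. The values of batch 1 were lower, 7.88 and 8.32 CPM in WT and 11.2, 11.6 and 9.07 CPM in KO libraries, with every KO library above every WT library. The log2 fold changes were 0.27 ± 0.45 in batch 1 (edgeR adjusted p = 1) and 0.09 ± 0.39 in batch 2 (edgeR adjusted p = 0.974), and the latter turned to -0.42 without KO 5 and to -0.23 without WT 3.

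Lag3 encodes a CD4 homologue that binds MHC class II. In batch 2 it followed the libraries of Pdcd1, at 4.55 and 10.8 CPM in WT and 6.51 and 13.8 CPM in KO libraries, where WT 4 and KO 5 were the high ones. In batch 1 WT libraries held 5.84 and 6.50 CPM and KO libraries 5.32, 5.62 and 5.33 CPM, all of the latter below the former on 27 to 66 counts. Log2 fold changes of -0.32 ± 0.54 in batch 1 (edgeR adjusted p = 1) and 0.42 ± 0.54 in batch 2 (edgeR adjusted p = 0.891) did not pass, and the batch 2 value turned to -0.22 without KO 5 and to -0.06 without WT 3.

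Cd160 encodes a lipid-anchored receptor for the same partner as Btla and is better known from NK and CD8 T cells. Cd160 was the member with the lowest median level per kilobase in each batch, at 4.95 and 4.15 CPM in WT and 4.68 and 4.71 CPM in KO libraries of batch 2. In batch 1 WT libraries held 2.83 and 4.47 CPM and KO libraries 3.72, 4.13 and 6.71 CPM, on 22 to 36 counts. The highest value belonged to KO 3, which also had the highest mean of the sensory receptor genes, 1.69 CPM per gene, and the lowest belonged to WT 1, which had the lowest, 0.38 CPM. The part of that background in the Cd160 values was not tested.

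**Figure D3:**
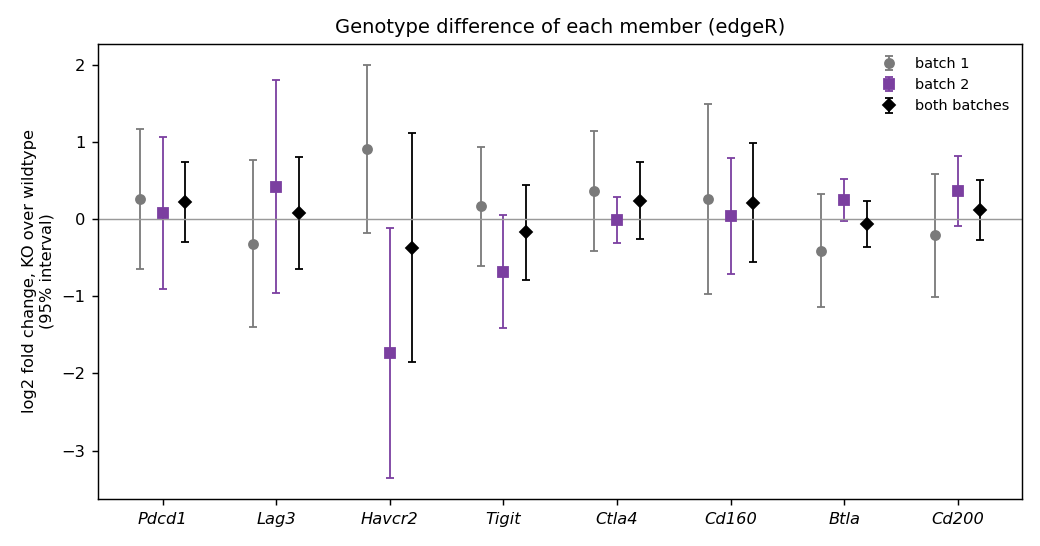
Log2 fold change of KO over WT (y axis, with 95% intervals) for each member (x axis) in batch 1, batch 2 and both batches together. The batch 2 interval of Havcr2 is the one interval among the 24 that lies wholly on one side of 0, and it did not pass adjustment.

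Within batch 1 edgeR called 0 of the 8 members, beside 0.126% of 24600 genes, and 0 members had an unadjusted p under 0.05, beside 1.97% of genes. DESeq2 called 0, beside 0.13%. The genotypes did not overlap for 4 members. Pdcd1 and Havcr2 were higher in every KO library, as were 10.9% of genes, and Lag3 and Btla were lower, as were 5.19% of genes. Within batch 2 edgeR called 0 of 8 members and 0.0% of 15910 genes, and 1 member (Havcr2) had an unadjusted p under 0.05, beside 7.77% of genes. There Havcr2 and Tigit were lower in both KO libraries, as were 20.5% of genes, and Btla and Cd200 were higher, as were 19.6%. In 0 of 8 members did the genotypes separate in the same direction in both batches, as they did in 1.99% of 24633 genes, and in 2, Havcr2 and Btla, they separated in opposite directions, as in 3.25%.

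Taking away each batch's mean showed which libraries set these values. In batch 2 Havcr2 and Tigit were highest in WT 4, at 1.48 and 0.74 above the batch mean of log2 CPM, and lowest in KO 4, at -1.54 and -0.52. In batch 1 both were lowest in WT 2, at -1.05 and -0.82. Over the 9 libraries the centred values of Havcr2 and Tigit had a Pearson r of 0.86 and those of Pdcd1 and Lag3 of 0.75, while Havcr2 and Btla had -0.72. Each r describes libraries that share batch and depth, and no test was made.

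**Figure D4:**
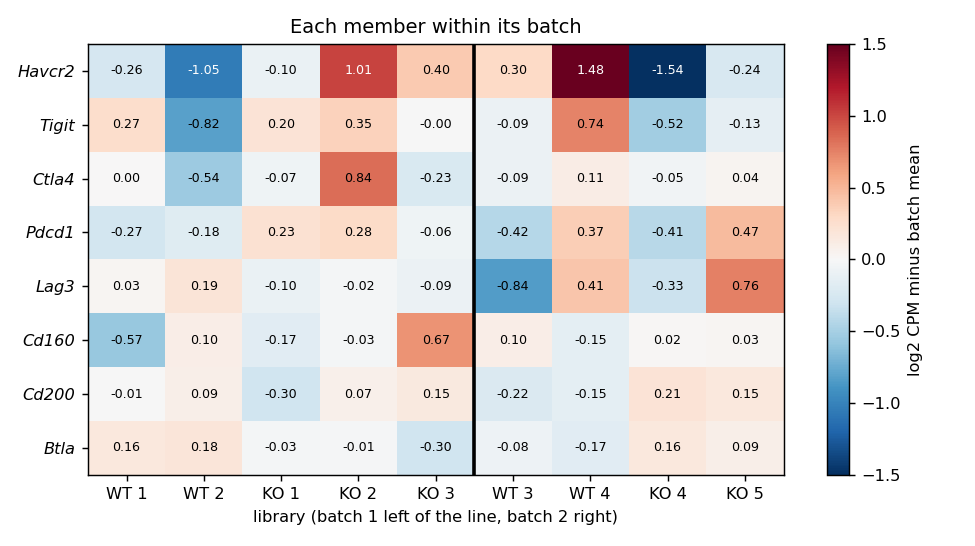
Log2 CPM of each member (rows) in each library (columns) after the mean of its batch was taken away, with the value in each cell. Havcr2 and Tigit share their high library (WT 4) and low libraries (WT 2 and KO 4), and Pdcd1 and Lag3 are high in WT 4 and KO 5.

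By the same measure, the genes most like each member were named among the 75 other tested genes of the pathway lists. Havcr2 was most like Tbx21 (r = 0.94), the T helper 1 factor, and Nfil3 (r = 0.87). Tigit was most like Lilrb4a (r = 0.92) and Cd80 (r = 0.90), and Ctla4 most like Klrg1 (r = 0.89) and H2-Ab1 (r = 0.89). Within batch 1 Ctla4, Klrg1 and H2-Ab1 were all highest in KO 2. Pdcd1 was most like Pvrig (r = 0.86) and Klrg1 (r = 0.77), and Lag3 most like the cytokine gene Il10 (r = 0.87) and Nfatc1 (r = 0.77). Il10 had 0 counts in WT 3, where Lag3 was lowest, and at most 55 in any library, so its r rests on few counts. Btla was most like Sh2d1a (r = 0.85) and Slamf6 (r = 0.81), and Cd200 most like Cd27 (r = 0.79) and Slamf6 (r = 0.72). Cd160 had no close partner, with Nectin2 (r = 0.51) and Eomes (r = 0.45) highest. Nectin2 had 0 counts in KO 5 and at most 28 in any library, so its r also rests on few counts. Tbx21 itself was at 35.2 and 75.7 CPM in WT and 18.6 and 38.6 CPM in KO libraries of batch 2, with WT 4 highest as for Havcr2.

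Levels of different members can be compared only per length. Per kilobase of exon in GENCODE M21, Btla (median 36.2 CPM per kb, range 32.1 to 40.3) and Tigit (32.0, 24.1 to 57.8) were the highest in batch 2 and overlapped. Ctla4 followed at 19.4 CPM per kb (18.3 to 21.0), below both ranges. Pdcd1 (8.39, 6.13 to 11.4) stood above Cd200 (3.76, 3.22 to 4.32), while Havcr2 (4.73, 1.57 to 12.7) and Lag3 (4.11, 2.16 to 6.53) overlapped both. Cd160 had the lowest median, 1.78 CPM per kb (1.57 to 1.88), a range that lies within that of Havcr2. In batch 1 the median order was Btla, Tigit, Ctla4, Pdcd1, Cd200, Lag3, Havcr2 and Cd160, from 36.6 to 1.56 CPM per kb. Exons of all annotated isoforms were joined, so a gene expressed as a short isoform is understated.

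Several members differed between batches. In the batch term of the model 4 of 8 members were higher in batch 2, Pdcd1, Ctla4, Tigit and Lag3, where 18.1% of genes were called higher and 69.3% were called in either direction. Of the related lists described below, 11 of 12 co-stimulatory molecules and 12 of 13 signalling and trafficking genes were called higher. So were 4 of 9 other inhibitory receptors (1 lower), 4 of 14 binding partners (3 lower) and 10 of 20 listed regulators (3 lower). A rise in batch 2 was thus not particular to the members. The median log2 fold change over all genes was -1.43, so these values are relative to a table in which most genes were lower in batch 2. Pdcd1 rose by 1.09 ± 0.24 on the log2 scale (edgeR adjusted p = 0.00169), from 7.88 to 11.6 CPM in batch 1 to 11.8 to 22.0 CPM in batch 2. Ctla4 rose by 0.75 ± 0.23 (edgeR adjusted p = 0.0122), Tigit by 0.77 ± 0.28 (edgeR adjusted p = 0.029) and Lag3 by 0.91 ± 0.33 (edgeR adjusted p = 0.0278). With DESeq2 size factors or upper-quartile scaling only Pdcd1 and Ctla4 passed, 64.5% and 61.1% of genes being called, and all 8 members kept a positive value. DESeq2's own test called 4, with Havcr2 in place of Lag3, beside 68.3% of genes, and limma-voom called 2 beside 70.3%. At an unadjusted p under 0.05 edgeR had 72.4% of genes and the same 4 members. Without KO 5 the count was 0 of 8, without KO 3, KO 4 or WT 2 it was 2, and every other omission gave 3 to 5. Btla had 0.23 ± 0.14 in the model while its mean CPM went from 141 to 112 in WT and from 116 to 133 in KO libraries. The scaling factors in the model were 1.06 to 1.15 in batch 1 and 0.88 to 0.92 in batch 2.

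Genes that work with these receptors were read from 5 lists, and 0 of their tested members passed edgeR's threshold for genotype in either batch or in both together. DESeq2 also called 0 of them over both batches and in batch 1. In batch 2 it called Lgals3, Nr4a1, Nr4a2 and Nfil3 lower and Slamf6 higher in KO, which are named here after their values were seen, and 2.07% of all genes. For the interaction it called Slamf6 and Nfil3, and 0.572% of all genes. Among 14 tested binding partners of the 15 listed, 7 had a positive log2 fold change over both batches, with a median of -0.02 beside 0.02 for all genes. Those with the smallest p were Hmgb1, a TIM-3 ligand, at -0.22 ± 0.11 and Tnfrsf14, the partner of BTLA and CD160, at 0.26 ± 0.18 (edgeR adjusted p = 1 for each). Of 9 other inhibitory receptors 6 were positive, with a median of 0.09, and 1, Cd101, had an unadjusted p under 0.05, as did 2.3% of all genes. The smallest p-values were those of Cd101 at 0.40 ± 0.17 and Klrg1 at 0.63 ± 0.37. Of 12 co-stimulatory molecules 5 were positive, with a median of -0.11, and the smallest p-values were those of Cd40lg at -0.41 ± 0.20 and Tnfrsf4 at 0.34 ± 0.20. Of 13 signalling and trafficking genes 7 were positive, with a median of 0.01, and the smallest p-values were those of the phosphatase Ptpn6 at 0.19 ± 0.12 and the kinase Csk at 0.14 ± 0.10.

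The list of 20 transcriptional regulators held the smallest p-values of these lists. It also includes the cytokine gene Il10 and the cytokine receptor gene Il27ra. Over both batches 9 of 20 were positive, with a median of -0.01. Of the 20, 5 had an unadjusted p under 0.05, Il27ra among them, as did 2.3% of all genes. Nr4a3 had -0.85 ± 0.20 and Nr4a1 -1.06 ± 0.28 (edgeR adjusted p = 1 for each), both nuclear receptors induced by antigen receptor signalling and tied to the expression of inhibitory receptors in exhausted cells. Nr4a1 was at 455 and 418 CPM in WT and 279, 361 and 204 CPM in KO libraries of batch 1, and at 387 and 178 CPM in WT and 109 and 90.4 CPM in KO libraries of batch 2. Every KO library was below every WT library of its batch. Separation in the same direction in both batches, above or below, was found in 1.99% of all genes and 0 of the 8 members. Nr4a1 was named for its small p in this contrast, so nothing is read from its separation. The proliferation sums given above were also lower in KO in batch 2 and overlapped in batch 1.

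**Figure D5:**
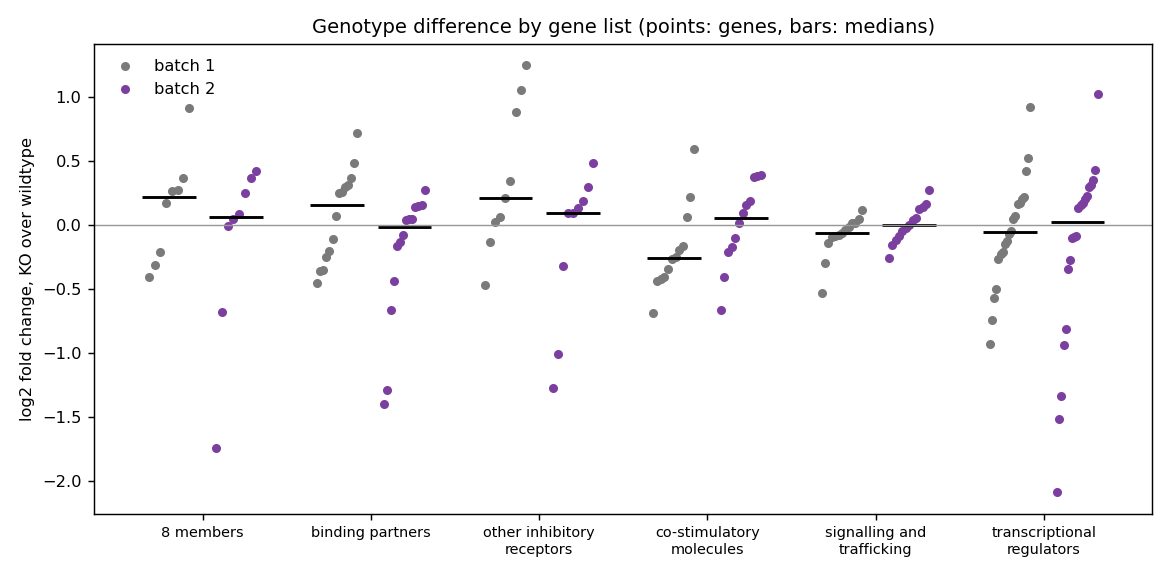
Log2 fold change of KO over WT (y axis) for the members and 5 lists of related genes (x axis) in batch 1 and batch 2. Points are tested genes and bars are medians, which lie between -0.261 and 0.215 for every list in both batches.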

How the data were processed

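RNA was measured in 9 libraries. The authors deposited fractional estimated counts per gene in a single table, whose totals differ between libraries. Per the submitters' processing notes, Salmon 1.2.0, R 4.0.3 and GRCm39 were used, with no roles stated. Annotation, strand setting, any length scaling and the step from transcripts to genes are likewise not stated in the labels, so reads of overlapping genes cannot be told apart. The 8 members and all lists were chosen with earlier results of these data known.

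Values were rounded to whole counts and tested over the whole table with edgeR 4.0.16 in R 4.3.3 (quasi-likelihood, robust, TMM, default low-count filter of minimum count 10 and minimum total 15, Benjamini-Hochberg, threshold 0.05). The models held batch and genotype, genotype within a batch, or their interaction. Standard errors came from the F statistic. Genes outside the members were named as the 2 with the smallest p per list. CPM are counts over the library total. A floor of 3 counts was 0.043 to 0.609 CPM. These limits cover counting error only. Likeness used a prior of 0.5 counts. Alternatives were DESeq2 1.42.0, limma-voom (limma 3.58.1), other scalings, no filter, no batch term, a replicate block and leaving out each library. The fits were tested on simulated data. Libraries of a group and batch differed by more than sampling noise (4.27 to 141 chi-square units per degree of freedom).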

Additional observations from a re-analysis of the deposited data

Results flagged for a closer look

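Of 16 combinations of member and genotype examined for a lone library, 3 stood out, where chance gives about 1 in 20 in groups of like libraries. Each group pooled both batches, whose depth differs. Pdcd1 was at 22.0 CPM in KO 5 and at 11.9 CPM or less in the other KO libraries. Lag3 was at 13.8 CPM in KO 5, with 6.51 CPM the next highest in KO. In the same batch WT 4 also had high values of both genes, 20.5 and 10.8 CPM. Cd200 was at 10.5 CPM in KO 1 and between 13.7 and 14.4 CPM in the other KO libraries.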

How the results depend on the processing

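Over both batches, 1 gene was called by edgeR, and the count was 2 without the low-count filter, 14 with DESeq2, 0 without the batch term and 0 to 4 without single libraries. In batch 1, 31 genes were called, against 56 with DESeq2 size factors, 6 with upper-quartile scaling, 68 without the filter, 12 with limma-voom and 33 to 118 without single libraries. In batch 2, 0 genes were called, against 34 without the filter, 329 with DESeq2, which included 1 member (Havcr2), and 0 to 879 without single libraries, with 0 to 1 members. The interaction called 1 gene, against 2 with DESeq2 size factors, 2 without the filter, 157 with DESeq2, 0 with limma-voom and 0 to 559 without single libraries, with 0 to 1 members. The batch term called 17065 genes, against 25837 without the filter and 14599 to 21091 without single libraries. It called 4 members, against 2 with DESeq2 size factors, 2 with upper-quartile scaling, 2 with limma-voom and 0 to 5 without single libraries. The median over all genes moved from -1.43 to -1.55 and -1.63 with the first 2 of these scalings. The cause of these shifts was not tested.

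Directions turned for some members, none of them called. Over both batches Lag3 was at -0.0085 without the filter and Btla at 0.013 with limma-voom, and Ctla4 in batch 2 was at 0.026 with upper-quartile scaling. Without single libraries the value over both batches ranged from -0.025 to 0.33 for Pdcd1, -0.32 to 0.17 for Lag3, -1.01 to 0.10 for Havcr2, -0.12 to 0.32 for Ctla4, -0.23 to 0.0195 for Btla and -0.0381 to 0.15 for Cd200. In batch 1 it ranged from -0.39 to 1.06 for Tigit and -0.11 to 0.88 for Ctla4. In batch 2 it ranged from -0.42 to 0.48 for Pdcd1, -0.22 to 1.11 for Lag3, -0.0731 to 0.0445 for Ctla4 and -0.12 to 0.22 for Cd160. The interaction ranged from -0.70 to 0.24 for Pdcd1 and -0.92 to 0.16 for Ctla4, and the batch term from -0.0106 to 0.50 for Btla. Havcr2 kept its direction within each batch and for the interaction without any single library, from 0.45 to 1.63 in batch 1, -2.53 to -1.09 in batch 2 and -3.43 to -1.96 for the interaction. Of 32 group means of CPM, 11 moved by more than 1 SD with TMM scaling.

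A replicate block, in which KO 5 has no partner and was left out, called 0 genes over both batches and gave -0.21 for Pdcd1, -0.37 for Lag3, -0.0565 for Ctla4 and -0.0362 for Cd200. The block model held no batch term, and number 3 joins WT 3 of batch 2 with KO 3 of batch 1. That pair mixes batch with genotype, so nothing is read from the signs of the block values. Same-numbered libraries had correlated deviations for numbers 1, 2 and 4 (r = 0.832, 0.873 and 0.805) and not for number 3 (r = -0.843), whose libraries are in different batches. These signs follow the batches, so the check does not tell whether numbers pair libraries within a batch, and no label gives such a pairing. Members with few counts in batch 1, such as 14 to 106 for Havcr2 and 22 to 36 for Cd160, are limited by depth.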
